A study of Homo sapiens with 4 samples.

Results

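The mRNAs of 9 genes of the Eph receptor and ephrin family were examined in 786-O cells with and without a knockout of DEK. The genes were the receptors EPHA2, EPHA4, EPHB2, EPHB3 and EPHB4 and the ligands EFNA1, EFNA5, EFNB1 and EFNB2, chosen by name from the 59409 gene symbols of the expression table. 786-O is a human renal carcinoma line of clear cell type, and DEK is a chromatin protein that acts as a histone chaperone. The 2 control libraries carry the genotype label WT, are titled as negative control and have Cas9 in their column names. The 2 knockout libraries are labelled DEK KO. Knockout clones were made from a Cas9-expressing clone by infection with guide viruses against DEK and sorting of single cells. The labels do not say which clone gave which library, whether the controls received a guide, or whether libraries of a group were separate cultures, so the p-values rest on the spread between single libraries, and that spread could be technical only.

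Eph receptors are receptor tyrosine kinases that bind ephrins on the surface of neighbouring cells. EphA receptors bind mostly the lipid-anchored ephrin-A ligands, and EphB receptors bind mostly the transmembrane ephrin-B ligands, with EPHA4 known to bind both kinds. Signals run forward into the receptor-bearing cell and in reverse into the ligand-bearing cell, and they control adhesion, repulsion and cell sorting through the actin cytoskeleton. EPHA2 is prominent in epithelial cancers, and the pair of EFNB2 and EPHB4 is best known from the boundary between arteries and veins.

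EFNB2, the ligand ephrin-B2, rose about 2-fold in the knockout, and it was the only member past the test. Of the 9 members, 7 had at least 1 TPM (transcripts per 1000000, a level per length and per library) in at least 2 libraries and were tested. Of these 7, 1 rose and 0 fell by limma at a Benjamini-Hochberg adjusted p under 0.05, and 3 (EFNB2, EFNA1 and EFNA5) had an unadjusted p under 0.05. In bulk RNA, fewer cells with a transcript and less of it per cell cannot be told apart. Among all 15815 genes tested 17.7% passed, 9.06% upwards and 8.67% downwards, so the members' share of 14.3% was near the background. The median difference in log2(TPM + 1) was 0.16 for the 7 members and -0.06 for all genes tested. The knockout and control values did not overlap for 6 of the 7, with 3 higher and 3 lower, where 68.3% of all genes tested had groups that did not overlap (29.2% higher and 39% lower). The untested members were the receptors EPHB3 and EPHB4.

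**Figure D1:**
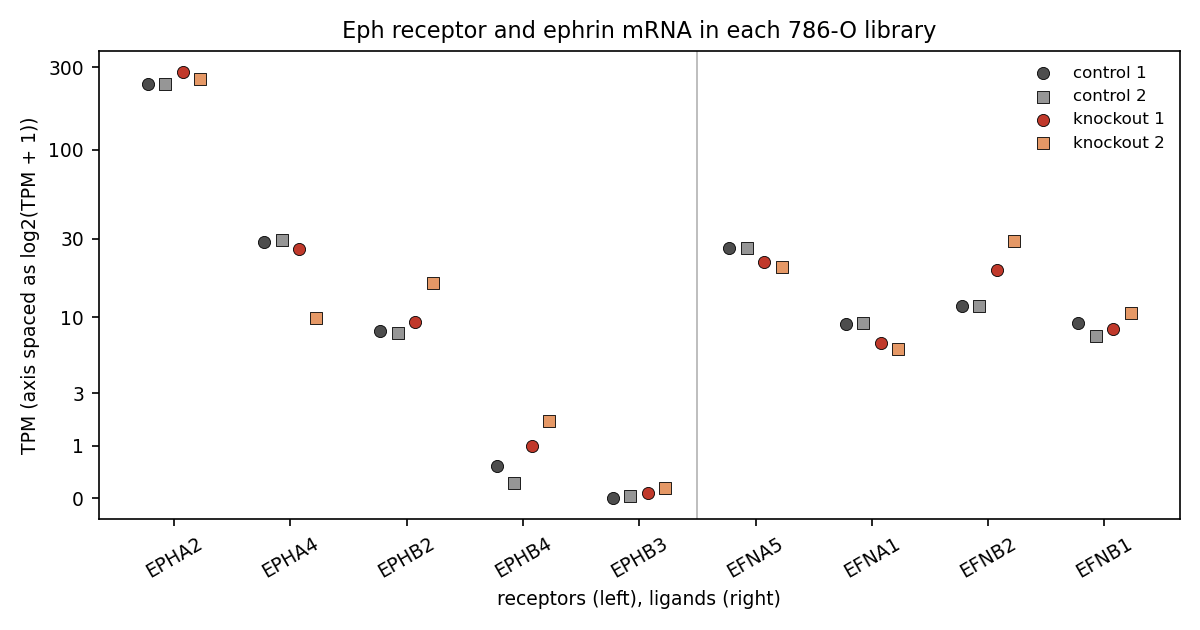
Level of each of the 9 members in each library, in TPM on an axis spaced as log2(TPM + 1). Grey symbols are controls and coloured symbols knockouts. EPHA2 lies far above the others at 241 to 282 TPM, EFNB2 is higher in both knockouts, and EPHA4 is low only in knockout 2 (9.92 TPM).

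The targeted gene was examined first. DEK was at 95.02 and 76.3 TPM in the controls, against 31.4 and 15.7 TPM in the knockouts, with a log2 difference of -1.89 (SE 0.33) that passed (limma adjusted p = 0.030). The mRNA was lower in both knockouts and still present, and it was lowest in knockout 2. The DEK call was lost without control 1 (adjusted p = 0.14), without control 2 (0.10), with no filter on low values (0.096) and with a constant variance prior (0.056), with differences of -2.05 to -1.73. The protein was not measured.

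Read depth was estimated from the steps of the lowest TPM values at 35.8 to 40.1 (units of 1000000 reads) per library. All 6 markers of the 786-O line were present, among them PAX8 at 140 to 160 TPM, a renal transcription factor. Of the 6, the keratin KRT18 rose from 206 to 276 TPM on average (limma adjusted p = 0.025), the cadherin CDH6 fell from 117 to 82.8 TPM (adjusted p = 0.038), and the other 4 did not pass. Markers of endothelial cells and leukocytes summed to at most 0.507 and 0.236 TPM in any library, with CD3E at 0 in all 4, and fibroblast markers to at most 1.52 TPM. Of the 2 neural markers GFAP was under 1 TPM in every library, while RBFOX3 was at 5.69 and 5.62 TPM in the controls, against 20.4 and 13.5 TPM in the knockouts. Its part in the results below was not tested. Across genes tested, the median absolute gap in log2(TPM + 1) was 0.10 between the controls and 0.19 between the knockouts.

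EPHA2 was the dominant receptor of the family in every library. Its level was 241 and 242 TPM in the controls, against 282 and 256 TPM in the knockouts. Both knockouts lay above both controls, by 1.17-fold and 1.06-fold of the control mean. The mean went from 241 ± 0.353 to 269 ± 18.1 TPM (SD, n = 2), a log2 difference of 0.16 (SE 0.07, 95% interval -0.03 to 0.34, limma adjusted p = 0.18), which did not pass. Only 3.43% of the genes tested had a higher mean level. EPHA2 held 85.3% and 85.5% of the summed TPM of all 14 Eph receptor genes in the controls, against 87.3% and 87.6% in the knockouts. The gene lies on chromosome 1 (16124337 to 16156087, minus strand, GRCh38). The median difference of the other 1602 genes tested on chromosome 1 was -0.10 in knockout 1 and -0.26 in knockout 2, while EPHA2 itself was at 0.22 and 0.09. The 41 tested genes that start within 2 Mb had medians of 0.05 in knockout 1 and 0.005 in knockout 2. The lower chromosome median was thus not seen in the genes near EPHA2. With each library's chromosome medians removed, the EPHA2 difference was 0.32 and passed (adjusted p = 0.027). The difference was 0.22 without knockout 2, and it was 0.04 with the GC trend removed (limma adjusted p = 0.76).

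EPHA4, the receptor that binds ligands of both classes, differed between the 2 knockouts more than between the groups. It was at 28.9 and 29.5 TPM in the controls, at 26.2 TPM in knockout 1 and at 9.92 TPM in knockout 2. Knockout 1 was thus close to the controls and knockout 2 well below them, and the groups did not overlap. The mean went from 29.2 ± 0.388 to 18.1 ± 11.5 TPM (SD, n = 2), a log2 difference of -0.81 (SE 0.43, 95% interval -1.93 to 0.32, limma adjusted p = 0.24). The gap between the knockouts was 1.32 on the log2(TPM + 1) scale, and 1.59% of the genes tested had a gap as large. EPHA4 lies on chromosome 2 (221418027 to 221574202, minus strand). The other 14 tested genes that start within 2 Mb had median differences of -0.01 in knockout 1 and -0.04 in knockout 2, against -0.15 and -1.47 for EPHA4. Without knockout 1 the EPHA4 difference was -1.47, and without knockout 2 it was -0.15.

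EPHB2, a receptor for ephrin-B ligands, also stood apart in knockout 2. Its level was 8.12 and 7.97 TPM in the controls, 9.25 TPM in knockout 1 and 16.4 TPM in knockout 2. Both knockouts lay above the controls, knockout 1 by 1.15-fold and knockout 2 by 2.03-fold of the control mean. The mean went from 8.05 ± 0.110 to 12.8 ± 5.03 TPM (SD, n = 2), a log2 difference of 0.56 (SE 0.27, 95% interval -0.14 to 1.26, limma adjusted p = 0.20). The gap between the knockouts was 0.76, and 6.81% of the genes tested had one as large. EPHB2 lies on chromosome 1 (22710839 to 22921500, plus strand), and the 45 tested genes that start within 2 Mb had medians of 0.03 and 0.05 in knockout 1 and knockout 2, against 0.18 and 0.94 for EPHB2. The EPHB2 difference was 0.94 without knockout 1 and 0.18 without knockout 2.

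EPHB4, the ephrin-B2 receptor of veins, and EPHB3, an EphB receptor known from the intestinal crypt, were too low for the main test. EPHB4 was at 0.522 and 0.219 TPM in the controls, against 0.990 and 1.76 TPM in the knockouts, so the knockouts were higher. The smallest whole read numbers that give these 4 values were 23 and 10 in the controls, against 40 and 80 in the knockouts. Their ratio per depth was 3.80 (exact 95% interval 2.57 to 5.78, for counting error only). Fitted with no filter on low values, over 31270 genes, EPHB4 had a log2 difference of 0.78 on the log2(TPM + 1) scale and did not pass (limma adjusted p = 0.19). EPHB4 is on chromosome 7 (100802565 to 100827521, minus strand), and the 86 tested genes that start within 2 Mb had medians of -0.02 in knockout 1 and 0.34 in knockout 2. It shares 69 exonic bases with SLC12A9 on the opposite strand, which was at 23.5 to 40.5 TPM, and the sources used here do not say whether counting used strand. EPHB3, on chromosome 3 (184561784 to 184582409, plus strand), was at 0 and 0.0225 TPM in the controls, against 0.0764 and 0.136 TPM in the knockouts. These correspond to no fewer than 0, 1, 3 and 6 reads in that order, a ratio of 9.42 with an exact 95% interval of 1.30 to 413 for counting error only, so its size could not be resolved at this depth.

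The order of the receptors by level was EPHA2, EPHA4, EPHB2, EPHB4 and EPHB3 in both controls and in knockout 1. In knockout 2 EPHB2 stood above EPHA4. The 5 EphB genes together, EPHB1 and EPHB6 included, summed to 10.2 and 9.35 TPM in the controls, against 13.996 and 25.5 TPM in the knockouts, while the 9 EphA genes summed to 272 and 273 TPM and to 309 and 267 TPM. The EphB share of all Eph receptor TPM was 3.61% and 3.31% in the controls, against 4.33% and 8.71% in the knockouts. The EphB sums did not overlap between the groups and the EphA sums did. No test was made of sums or shares, since with 2 libraries per group the smallest two-sided exact permutation p is 0.333.

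EFNB2 encodes a transmembrane ligand for EphB receptors and EPHA4. Its level was 11.8 TPM in both controls, 19.7 TPM in knockout 1 and 29.1 TPM in knockout 2. Both knockouts lay above the controls, by 1.67-fold and 2.47-fold of the control mean. Mean EFNB2 rose 2.07-fold, from 11.8 ± 0.0131 TPM to 24.4 ± 6.64 TPM (SD, n = 2), and the log2 difference was 0.96 (SE 0.20, 95% interval 0.45 to 1.48, limma adjusted p = 0.040). EFNB2 lies on chromosome 13 (106489731 to 106535662, minus strand). The 6 tested genes that start within 2 Mb had medians of 0.04 and 0.05 in knockout 1 and knockout 2, against 0.69 and 1.23 for EFNB2, and with chromosome medians removed its difference was 1.12 (adjusted p = 0.037). An antisense gene, AL138689.2, shares 1313 exonic bases with EFNB2. It was at 0.189 and 0.216 TPM in the controls, against 0.321 and 0.698 TPM in the knockouts, so it too was higher in both and highest in knockout 2, and its part in the EFNB2 difference was not tested. The EFNB2 call was lost without control 1 (difference 0.96, adjusted p = 0.18) and without control 2 (0.96, adjusted p = 0.16), fits in which the lone control is assumed to vary like the knockouts. It was also lost with no filter on low values (adjusted p = 0.11) and with a constant variance prior (adjusted p = 0.066).

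**Figure D2:**
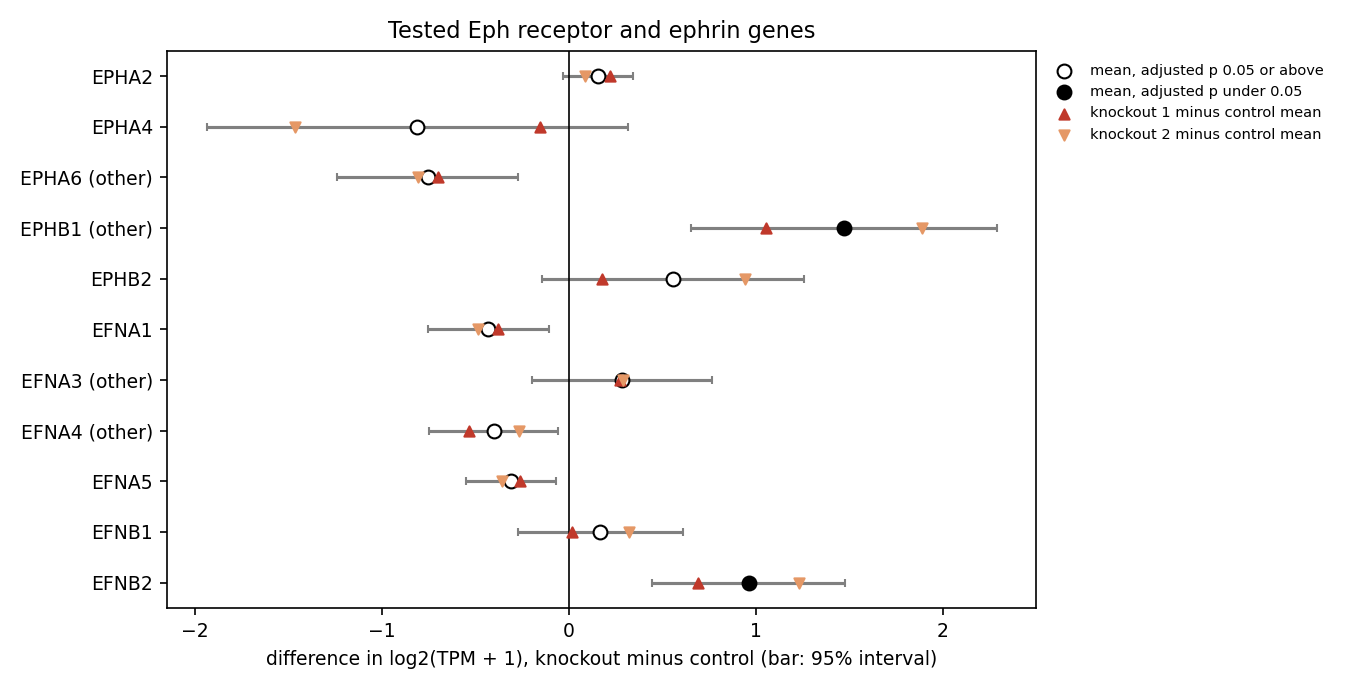
Difference in log2(TPM + 1), knockout minus control, for the 7 tested members and the 4 other tested genes of the family (marked other). Circles are means with 95% intervals from limma, filled where the adjusted p is under 0.05, and triangles are the 2 knockouts against the control mean. EFNB2 (0.96) and EPHB1 (1.47) passed, and the knockouts lie far apart for EPHA4 and EPHB2.

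EPHB1, a receptor for ephrin-B ligands that was not among the 9, was the only other gene of the family past the test. It was at 1.25 and 1.07 TPM in the controls, 3.49 TPM in knockout 1 and 6.998 TPM in knockout 2. The groups did not overlap. The mean rose 4.51-fold from 1.16 ± 0.125 to 5.25 ± 2.48 TPM (SD, n = 2), a log2 difference of 1.47 (SE 0.31, limma adjusted p = 0.042), and this call too was lost without control 1 or control 2 (adjusted p = 0.17 and 0.16), with no filter (0.12) and with a constant variance prior (0.062). EPHB1 lies on chromosome 3 (134597801 to 135260467, plus strand) and shares 64 exonic bases with KY on the opposite strand, which was at 0.641 and 0.719 TPM in the controls, against 1.40 and 2.05 TPM in the knockouts. The part of those reads in the EPHB1 difference was not tested.

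The sequences just before the transcription start are shown for EFNB2 and EPHB1, the family genes that passed, and for EFNA5, the most abundant ligand in the controls, which lay lower in both knockouts. They are the 250 bases upstream of the start in RefSeq (GRCh38.p14), at chr13:106535663-106535912 on the minus strand for EFNB2, chr3:134795010-134795259 on the plus strand for EPHB1 and chr5:107670938-107671187 on the minus strand for EFNA5. The RefSeq start of EPHB1 lies inside the GENCODE span given above, which begins further upstream, so its window precedes a start other than the first of that span. None of the 3 windows overlaps an exon of GENCODE release 29. Each is written from 5′ to 3′ on the gene's strand. Capitals mark matches on either strand. GGGCGG was searched as the GC box, and CCAAT as the CCAAT box. TATAAA was searched as the TATA box, and ACGTG as the core of the hypoxia response element. The AP-1 site was searched as TGANTCA.
EFNB2: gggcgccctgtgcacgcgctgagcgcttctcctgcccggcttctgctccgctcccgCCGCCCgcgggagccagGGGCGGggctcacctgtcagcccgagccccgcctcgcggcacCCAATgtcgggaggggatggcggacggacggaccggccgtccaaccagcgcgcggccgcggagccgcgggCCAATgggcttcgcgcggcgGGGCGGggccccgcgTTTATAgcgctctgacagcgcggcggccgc
EPHB1: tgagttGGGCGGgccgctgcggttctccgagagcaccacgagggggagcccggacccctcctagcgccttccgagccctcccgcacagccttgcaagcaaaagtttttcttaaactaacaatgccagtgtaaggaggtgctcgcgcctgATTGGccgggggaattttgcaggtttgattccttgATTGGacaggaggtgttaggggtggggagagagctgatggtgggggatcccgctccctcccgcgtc
EFNA5: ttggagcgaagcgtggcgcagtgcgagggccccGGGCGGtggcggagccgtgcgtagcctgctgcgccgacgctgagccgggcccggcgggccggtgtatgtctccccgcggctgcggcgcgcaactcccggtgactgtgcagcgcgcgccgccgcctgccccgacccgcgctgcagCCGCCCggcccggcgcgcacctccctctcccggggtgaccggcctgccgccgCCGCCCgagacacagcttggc
The EFNB2 window held 3 GC boxes, 2 CCAAT matches and 1 TATAAA match on the reverse strand, near the start. EPHB1 held 1 GC box and 2 CCAAT matches, and EFNA5 held 3 GC boxes and no match to the other motifs. RefSeq entries were found for all 9 members. Of these, 9 had a GC box, 5 a CCAAT match, 1 (EFNB2) a TATAAA match, 1 (EPHA4) a hypoxia response core and 0 the AP-1 motif in at least one listed window. Over 35116 listed promoter windows of the same length the shares were 42.6%, 32%, 10.7%, 18.5% and 6.57% in that order. These shares are per window and the member counts are per gene, so they are not like measures. EPHA4 and EPHB2 had 2 listed windows each, and the hypoxia response core of EPHA4 was in only 1 of them. A match is a description of the letters and not a binding site.

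EFNB1, the other ephrin-B member, did not separate the groups. It was at 9.16 and 7.59 TPM in the controls, against 8.45 and 10.7 TPM in the knockouts, so knockout 1 lay between the controls. The mean went from 8.37 ± 1.11 to 9.57 ± 1.58 TPM (SD, n = 2), a log2 difference of 0.17 (SE 0.17, 95% interval -0.27 to 0.61, limma adjusted p = 0.50). EFNB1 lies on the X chromosome (68828997 to 68842147, plus strand).

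The ephrin-A members were lower in both knockouts by less, and neither passed. EFNA1, a ligand of EPHA2, was at 9.11 and 9.15 TPM in the controls, against 6.80 and 6.25 TPM in the knockouts. Both knockouts lay below both controls, and the values within each group were close. The mean went from 9.13 ± 0.0307 to 6.52 ± 0.396 TPM (SD, n = 2), a log2 difference of -0.43 (SE 0.12, 95% interval -0.75 to -0.11, limma adjusted p = 0.075). The gene lies on chromosome 1 (155127460 to 155134857, plus strand), close to EFNA3 and EFNA4, and the 113 tested genes that start within 2 Mb had medians of -0.02 in knockout 1 and -0.19 in knockout 2, against -0.38 and -0.48 for EFNA1. Without knockout 1 the EFNA1 difference was -0.48.

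EFNA5, a ligand best known from the guidance of axons, was at 26.6 and 26.4 TPM in the controls, against 21.9 and 20.5 TPM in the knockouts. Again both knockouts lay below both controls. The mean went from 26.5 ± 0.0931 to 21.2 ± 1.02 TPM (SD, n = 2), a log2 difference of -0.31 (SE 0.09, 95% interval -0.55 to -0.07, limma adjusted p = 0.079). EFNA5 lies on chromosome 5 (107376889 to 107670895, minus strand). Only 5 tested genes start within 2 Mb, with medians of -0.14 in knockout 1 and -0.42 in knockout 2, beside -0.26 and -0.35 for EFNA5 itself. The part of this stretch in the EFNA5 difference was not tested. The EFNA5 difference was -0.35 without knockout 1.

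Summed over the family, ephrin-A mRNA was lower and ephrin-B mRNA higher in both knockouts. The 5 ephrin-A genes summed to 53.9 and 54.1 TPM in the controls, against 42.7 and 43.0 TPM in the knockouts. The 3 ephrin-B genes summed to 20.9 and 19.4 TPM and to 28.2 and 39.8 TPM. The ephrin-B share of ephrin TPM was 27.96% and 26.4% in the controls, against 39.8% and 48.1% in the knockouts, and EFNB2 alone went from 15.7% and 16.0% to 27.8% and 35.1%. EFNA5 was the most abundant ligand in both controls and in knockout 1, and EFNB2 was in knockout 2. EFNA1 and EFNB1 stood in opposite order in the 2 controls, and their control means of 9.13 and 8.37 TPM differed by less than the SD of EFNB1 there, 1.11 TPM.

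**Figure D3:**
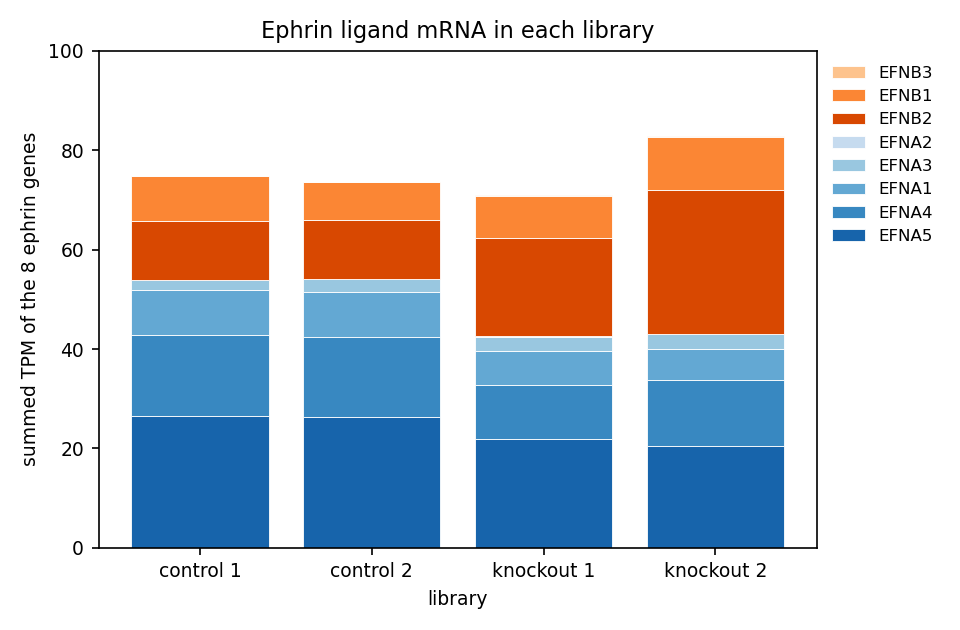
Summed TPM of the 8 ephrin genes in each library, with ephrin-A genes in blue and ephrin-B genes in orange. The blue part goes from 53.9 and 54.1 TPM to 42.7 and 43.0 TPM and the EFNB2 segment grows to 19.7 and 29.1 TPM in the knockouts.

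Of the rest of the family, 4 of 13 genes were tested, and in the fit described above only EPHB1 passed. EPHA6, a receptor of the nervous system, was at 1.96 and 1.95 TPM in the controls, against 0.819 and 0.692 TPM in the knockouts (log2 difference -0.75, limma adjusted p = 0.055). EFNA4, an ephrin-A ligand, was at 16.3 and 15.9 TPM and at 10.8 and 13.2 TPM (-0.40, adjusted p = 0.098). EFNA3 was at 1.96 and 2.62 TPM and at 2.97 and 3.01 TPM (0.28, adjusted p = 0.31). On the same strand AL691442.1, listed at 0 in all 4 libraries, shares 853 exonic bases with EFNA3 and 189 with EFNA4. The part of this overlap in the levels of EFNA3 and EFNA4 was not tested. EPHA6 passed by limma with quantile normalization (adjusted p = 0.047), with mitochondrial genes left out (0.049) and with a constant variance prior (0.038). It reached 1 TPM only in the controls, so it was tested only through the group where it was higher. These p-values therefore add no separate support for a fall. EFNA4 passed by limma with the GC trend removed (adjusted p = 0.046), and its difference was -0.53 without knockout 2. The 3 ephrin-A genes of chromosome 1 thus did not all lie on the same side. The median of the 4 was -0.06, and 0.11 with chromosome medians removed. The 9 untested genes had at most 0.349 TPM in any library, and EPHA3, EPHA8 and EPHA10 were listed at 0 in all 4.

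The knockouts weighed unevenly on the members. A fit without 1 knockout takes a gene's own spread from the 2 controls alone, so a pass there carries no spread between knockouts. Its calls are not counted here. With either control left out no member passed by limma. Over all genes tested 2804 passed with all 4 libraries, with fewer calls without either control and more without either knockout. Left out in this way, the EFNB2 difference stayed between 0.69 and 1.23, while that of EPHA4 ran from -1.47 to -0.15 and that of EPHB2 from 0.18 to 0.94.

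**Figure D4:**
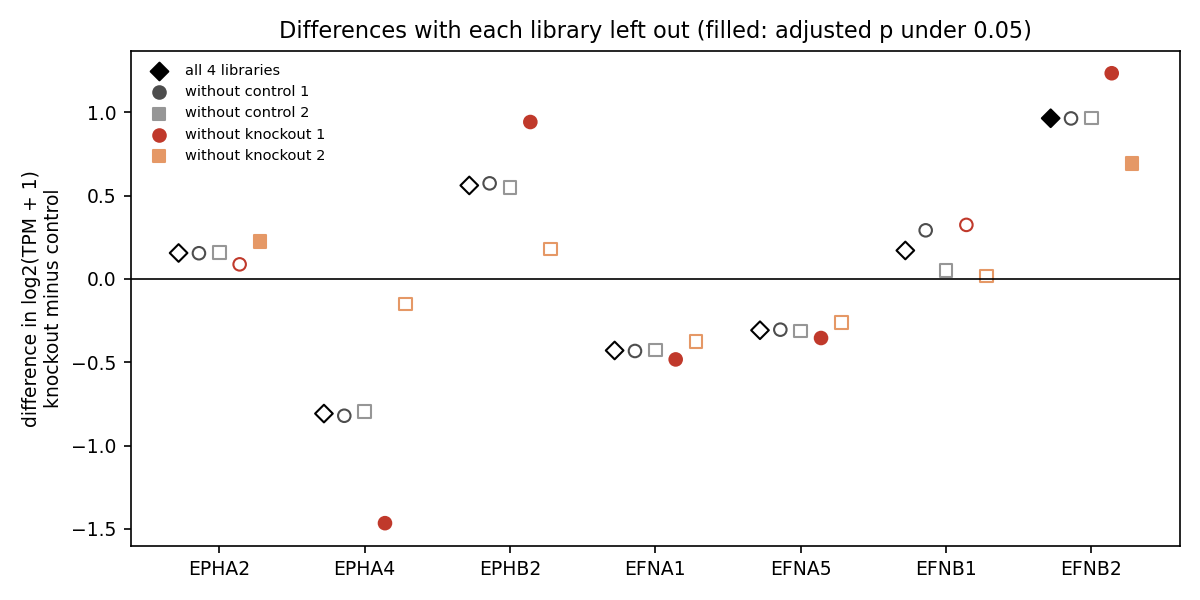
Difference in log2(TPM + 1), knockout minus control, for the 7 tested members with all 4 libraries and with each left out. Filled symbols have an adjusted p under 0.05. Without 1 knockout that p carries no spread between knockouts. EFNB2 stays between 0.69 and 1.23, and EPHA4 and EPHB2 move with the knockout that is left out.

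Genes that carry Eph and ephrin signals changed in both directions. Of 23 tested kinases, adaptors and regulators of forward signalling 5 rose and 1 fell (26.1% called, against 17.7% of all genes), with a median log2 difference of 0.12. SRC, the kinase recruited to Eph receptors and ephrins, was at 59.7 and 57.4 TPM in the controls, against 87.7 and 107 TPM in the knockouts (0.72, limma adjusted p = 0.026). SHC1, an adaptor of receptor tyrosine kinases, was at 270 and 258 TPM and at 417 and 384 TPM (0.60, adjusted p = 0.017). BCAR1, a scaffold of focal adhesions, rose 1.70-fold and RASA1, a GTPase activator for Ras that binds EphB2, rose 1.62-fold. FYN, a Src family kinase named to complete the count after its values were seen, rose 4.62-fold from 1.92 TPM. The member that fell was PTPN11, the phosphatase SHP2 (-0.34, adjusted p = 0.043).

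Of 10 tested partners of ephrin-B tails 1 rose and 3 fell (40% called, against 17.7% of all genes). Their median was -0.23, against -0.06 over all genes tested. RGS3, which links ephrin-B to G protein signals, was at 13.8 and 14.5 TPM in the controls, against 24.6 and 36.1 TPM in the knockouts (1.03, limma adjusted p = 0.034). PTPN13, a phosphatase that binds ephrin-B tails, was at 48.0 and 50.6 TPM and at 22.3 and 15.1 TPM (-1.38, adjusted p = 0.021). PARD6B, a polarity protein, fell 2.62-fold and SDCBP, syntenin, fell 1.34-fold. Of 8 tested proteases that cut Eph receptors or ephrins 1 rose and 3 fell (50% called, against 17.7% of all genes). The median of the proteases was -0.26. RHBDL2, 1 of the 8, was at 1.75 and 2.02 TPM in the controls, against 0.763 and 0.849 TPM in the knockouts. It was thus tested only through the group where it was higher. With the filter at 5 TPM, which leaves RHBDL2 out, the median was -0.16. MMP14, a membrane metalloproteinase known to cut EPHA2, was at 286 and 275 TPM in the controls, against 492 and 663 TPM in the knockouts (1.02, adjusted p = 0.022). ADAM10, which sheds ephrins, was at 72.8 and 69.2 TPM and at 46.7 and 32.0 TPM (-0.86, adjusted p = 0.043), ADAM17 fell 1.45-fold and the gamma-secretase subunit APH1A 1.29-fold. The lists were described by counts alone, and without control 1, without control 2 or with no filter on low values none of the genes in these 3 lists passed by limma. Without knockout 1 the median log2 difference of the forward list was 0.15, and more of its genes passed. That fit carries no spread between knockouts, so its calls are not counted here. With a constant variance prior the forward, ephrin-B and protease lists had 3, 2 and 2 calls. The proteases also had 2 with median of ratios scaling and with the GC trend removed. At a threshold of 0.01 none of the genes in the 3 lists passed by limma. With the filter at 5 TPM the median of the ephrin-B partners was -0.14.

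**Figure D5:**
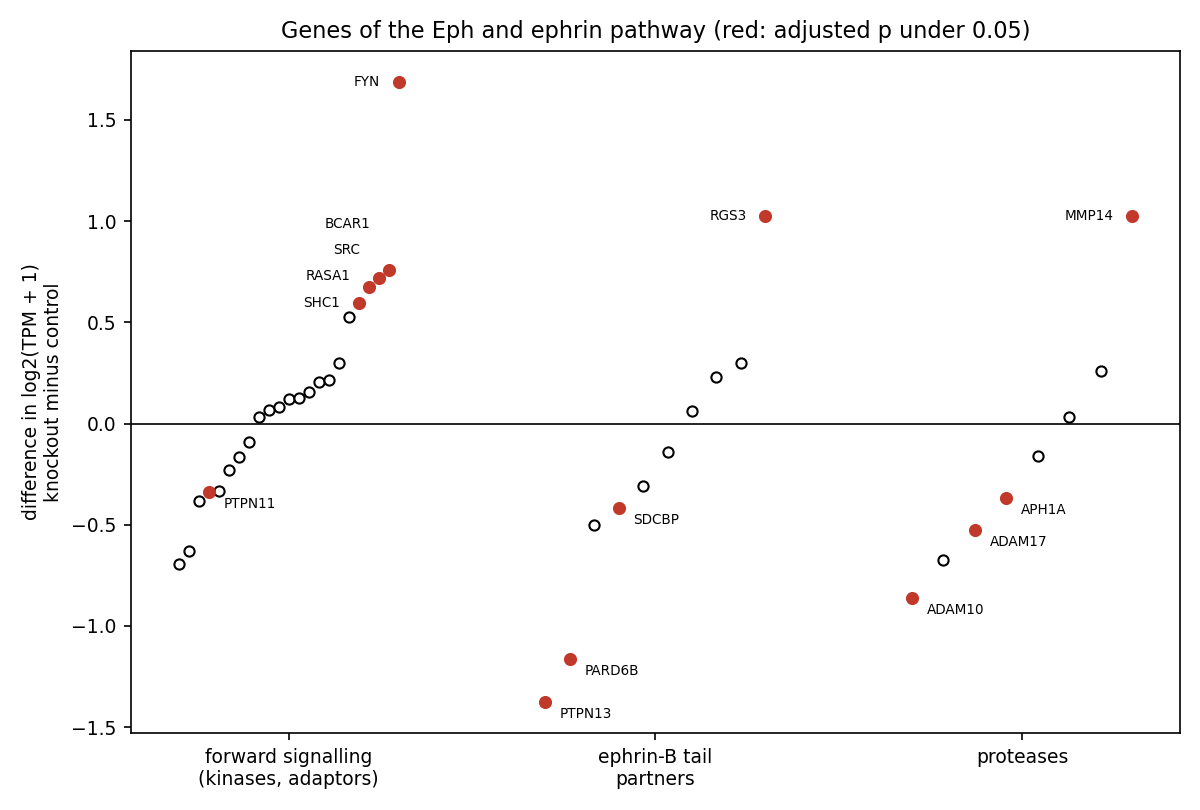
Difference in log2(TPM + 1), knockout minus control, for each tested gene of 3 lists of the pathway, ordered by value within a list. Red points have an adjusted p under 0.05 and carry names. Each list holds genes on both sides of 0, from PTPN13 at -1.38 to FYN at 1.69.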

How the data were processed

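Polyadenylated RNA of 2 control and 2 DEK knockout libraries was analysed, and groups and replicate numbers came from the titles. The authors deposited a table of TPM with 59409 symbols, in which each library sums to 1000000. The submitters' processing notes list the tools DESeq2 1.36.0, featureCounts 2.0.1, STAR 2.7.8a and cutadapt 1.18, and the build hg38, with no roles. The sources used here do not give the annotation, the gene lengths or the use of strand. TPM is relative, so a change of abundant genes shifts all others.

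The 15815 genes at 1 TPM or more in 2 or more libraries entered a limma model (limma 3.58.1, R 4.3.3) of log2(TPM + 1). Group was its single term, the variance prior followed the mean level, and Benjamini-Hochberg adjustment ran over all genes tested. A difference on this scale understates changes of low genes, and folds are ratios of mean TPM. Depth was estimated with the exon lengths of GENCODE release 29 (GRCh38), with which 52.7% to 55.7% of low values were whole to within 0.02. Read numbers are therefore approximate. Coordinates are those of GENCODE release 29, and a neighbour's or a chromosome's difference is the library against the control mean. The procedure was run on simulated data with independent normal errors in each library, so differences between knockout clones were not simulated. Only the median error of the differences was held to a limit there, and the shares of recovered and false calls were not. Another gene list and 1 leukocyte marker are not reported here. The members and gene lists were chosen with earlier results of these data known. Genes named are DEK, the members, the tested rest of the family and, for each pathway list, up to 4 genes per direction with the smallest p. FYN, RHBDL2, EPHA5, EFNB3 and the family genes listed at 0 fall outside this rule and were named after their values were seen. Some cell type markers and some genes that share exonic bases with a family gene are named as well. Not named above are AC079834.2 (353 bases shared with EPHA4), MIR4253 (34 with EPHB2) and ZYX (82 with EPHA1), all on the opposite strand. Their part in the levels was not tested. Alternatives covered the pseudocount, filter, scaling, variance prior, GC content, chromosomes, a replicate block, threshold and each library left out.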

Additional observations from a re-analysis of the deposited data

How the results depend on the processing

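The EFNB2 difference was 0.94 to 1.12 under the alternatives that kept all 4 libraries. It did not pass with no filter on low values (0.96, adjusted p = 0.11), with a constant variance prior (0.96, adjusted p = 0.066) or at a threshold of 0.01 (0.96), and in each of these 0 members were called higher. The counts of all genes called higher and lower were 26 and 0 with no filter, 866 and 571 with a constant prior and 80 and 10 at the threshold of 0.01. EPHA2 passed with chromosome medians removed (0.32), where 2 members were higher. Of all calls 51.1% were higher, and 62.4% with median of ratios scaling. The share was 45.4% with mitochondrial genes left out, 45.6% with the filter at 5 TPM and 47.9% with the replicate block. With single libraries left out, the ranges were 0.69 to 1.23 for EFNB2, 0.087 to 0.22 for EPHA2, -1.47 to -0.15 for EPHA4, 0.18 to 0.94 for EPHB2, -0.48 to -0.38 for EFNA1 and -0.35 to -0.26 for EFNA5. Members called higher numbered 0 to 2 and lower 0 to 3, and all genes called higher 44 to 2375 and lower 1 to 3135. The median of the rest of the family was 0.051 with no filter and 0.11 with chromosome medians removed, and -0.13 to 0.43 with single libraries left out. Without either control EPHA6 fell below the filter. The family median was then the EFNA3 difference, 0.14 without control 1 and 0.43 without control 2. Leaving out a library changes the number of samples. The filters and leaving out mitochondrial genes change the genes tested. The other settings keep the 4 libraries and the same genes tested, and the cause of the shifts was not tested.

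The shared replicate numbers are not said to pair the libraries, and over genes the differences between replicates correlated at 0.099 between the groups. With the replicate block EFNB2 had the same difference (0.96, adjusted p = 0.028), 1 member was higher and 0 were lower, and 1423 genes were higher and 1548 lower.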

Other observations

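Among the untested genes of the family, EPHA5, a receptor of the nervous system, was at 0.322 and 0.349 TPM in the controls, against 0.142 and 0.0586 TPM in the knockouts. These values correspond to 32 and 36 reads and to 13 and 6 reads, so that knockouts stood at 0.292 of controls (0.166 to 0.492 as an exact 95% interval that covers counting error alone), and the fit with no filter gave a log2 difference of -0.28 (limma adjusted p = 0.16). EPHA5-AS1, on the opposite strand, shares 535 exonic bases with it and was at 0.42 and 0.81 TPM in the controls, against 0.366 and 0.652 TPM in the knockouts. EFNB3, the remaining ephrin-B gene, had no fewer than 0 and 1 reads in the controls, against 3 in each knockout, a ratio of 6.28 with an exact 95% interval of 0.762 to 289.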
